A study of Mus musculus with 13 samples.

Results

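Transcripts of 10 heat shock chaperone genes were followed in keratinocytes of mouse skin: Hspb1, Hspa1a, Hspa1b, Hspa8, Hsph1, Hsp90aa1, Hsp90ab1, Dnaja1, Dnajb1 and Hspd1. They were chosen by gene name, with earlier results of these data known, from a deposited count table of 25746 genes. All 10 passed the filter on low counts that left 16051 genes for testing. Of these genes, 9 encode proteins that work mainly in the cytosol, whereas Hspd1 encodes the chaperonin of the mitochondrial matrix. Interfollicular keratinocytes, which form the epidermis away from hair follicles, were sorted by FACS from C57/BL6 mice whose Il12rb2 alleles were floxed in every group, and bulk RNA was sequenced. Mice of genotype K14Cre/+ Il12rb2fl/fl (called K14Cre here) gave 3 libraries after Aldara and 4 untreated libraries. Mice of genotype Il12rb2fl/fl without Cre (floxed control) gave 3 libraries after Aldara and 3 untreated libraries. Aldara is a cream with 5% imiquimod, a Toll-like receptor 7 agonist, and was applied to the skin for 1 day. Cre under the Krt14 promoter acts in basal keratinocytes and their descendants, where it deletes the floxed segment of Il12rb2, a subunit of the interleukin-12 receptor. Mice given the cream base alone, and K14Cre mice with unfloxed alleles, were not analysed here. The labels give no ages and do not tie each library to an animal of its own, so the p-values cover the spread between these libraries, part of which may be technical.

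Heat shock proteins are molecular chaperones that bind unfolded or partly folded proteins. Hsp70 proteins take up substrates in cycles of ATP hydrolysis that J-domain proteins start and that nucleotide exchange factors such as Hsp110 reset, and Hsp90 proteins receive a part of these substrates, among them kinases and steroid receptors. Small heat shock proteins hold unfolding proteins without ATP. Heat shock factor 1 drives the stress-inducible genes through heat shock elements, repeats of the unit GAA and its reverse complement TTC, while Hspa8 and Hsp90ab1 are the constitutive forms made in nearly all cells. In skin, HSPB1 is known from human epidermis as a protein of differentiating keratinocytes.

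Matches to the heat shock element motif are shown for these genes because such elements are a known site of shared control. Whether any match works as a heat shock element was not tested. RefSeq promoter windows of 250 bases before the transcription start (GRCm38.p6) matched 7 of the 10 genes, in 12 windows. Hspa8, Hsp90aa1 and Hsp90ab1 had none. A pair of units was searched as GAANNTTC or TTCNNGAA, each of which is its own reverse complement, so that both strands are covered. At least 1 match was found in 7 of the 12 windows, against 12.8% of all 32851 promoter windows of that length. The 7 windows belong to 6 of the 7 genes, whereas the 12.8% is a share of windows and not of genes. The Hsph1 windows overlap and hold the same match, which is thus counted in both. Dnajb1 held no match in its windows, which says only that these letters are not in them. Its window chr8:83607925-83608174 overlaps annotated exons of Tecr, and its window chr8:83608298-83608547 those of Dnajb1 itself. Stretches of 30 bases around the matches read as follows, 5′ to 3′ on the gene's strand, with the matched units in capitals.
Hspd1, chr1:55088053-55088082 (-): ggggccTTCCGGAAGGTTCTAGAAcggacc
Hspb1, chr5:135887801-135887830 (+): aGAAGTTTCcagatgggggcaGAACCTTCc
Hspa1a, chr17:34972242-34972271 (-): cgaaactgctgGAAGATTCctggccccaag
Hspa1b, chr17:34959324-34959353 (-): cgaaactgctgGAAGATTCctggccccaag
Hsph1, chr5:149636351-149636380 (-): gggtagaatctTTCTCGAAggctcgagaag
Dnaja1, chr4:40722333-40722362 (+): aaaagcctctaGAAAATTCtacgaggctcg
Hspd1 carried an overlapping run that also matched the longer motif GAANNTTCNNGAA or TTCNNGAANNTTC, found in 0.466% of all windows and in no other of these genes. This run lay only in the Hspd1 window chr1:55087933-55088182, which overlaps annotated exons of Hspd1 and Hspe1. The Hspd1 window chr1:55088244-55088493 held 0 matches and overlaps annotated exons of Hspe1. Matched windows of Hsph1 and Dnaja1 also overlap annotated exons of their own genes. The 250-base windows of Hspa1a and Hspa1b were 98.8% identical. They differed by 3 substitutions, C44T, T47C and T249G, given with the Hspa1a base first and counted from 1 at the 5′ end of the window, all outside the matched units. The window of Hspb1 is printed whole because Hspb1 had the largest log2 difference of the 10 between the genotypes after Aldara. That difference was not called by edgeR (adjusted p = 0.487). The window overlaps no annotated exon.
Hspb1, chr5:135887669-135887918 (+): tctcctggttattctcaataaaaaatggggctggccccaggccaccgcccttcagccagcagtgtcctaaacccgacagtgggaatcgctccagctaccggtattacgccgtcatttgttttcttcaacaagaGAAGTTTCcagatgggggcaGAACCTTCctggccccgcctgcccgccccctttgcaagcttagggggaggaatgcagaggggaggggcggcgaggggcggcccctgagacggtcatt

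Depth ranged from 5830034 to 22232478 counts per library. Il12rb2, the floxed gene, had 0, 1.07 and 1.64 CPM (counts scaled to library depth with the TMM factors) in K14Cre libraries after Aldara, where 0 counts allow up to 0.307 CPM (a floor of 3 counts, for counting error only), and 22.7, 8.52, 25.6 and 19 CPM in untreated K14Cre libraries. In floxed control libraries it had 1.98, 8.14 and 2.68 CPM after Aldara and 17.1, 78.8 and 52.7 CPM untreated, so the genotypes overlapped before treatment and the labels of genotype are only partly checked by this count. Markers of basal keratinocytes, such as Krt14 and Krt5, were all counted in every group. K14Cre Aldara replicate 1 stood apart from the other libraries, with a median Spearman correlation of 0.847. The predicted gene Gm10800 took 14.2% of the counts in floxed control untreated replicate 2, and 5.21% and 10.3% in K14Cre untreated replicates 1 and 2. In these bulk samples, fewer cells of a type and less RNA per cell cannot be told apart.

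Aldara was followed by higher Hspd1, Hspa8, Hsph1, Hsp90aa1 and Dnaja1 transcripts and by lower Dnajb1 and Hspb1 transcripts, when the Aldara effects of both genotypes were averaged. The stress-inducible pair Hspa1a and Hspa1b did not pass the test in any comparison. Thus 7 of the 10 genes were called (edgeR's quasi-likelihood F test, Benjamini-Hochberg adjusted p under 0.05), where 24.9% of all genes tested were called. Of these 7, 5 were higher and 2 lower, against 13% and 11.9% of all genes tested. Because the 10 were chosen with earlier results of these data known, such shares are not a test of the set. The median log2 fold change was 0.46 over the 10 genes and -0.15 over all genes tested. In K14Cre keratinocytes alone 5 of 10 were called (15.5% of all genes), 3 higher and 2 lower (7.81% and 7.69%), and in floxed control keratinocytes alone 3 of 10 (7.05% of all genes), 2 higher and 1 lower (4.15% and 2.9%). With 1 library left out at a time, 2 to 5 of the 10 were called in K14Cre and 2 to 6 in floxed control keratinocytes, where 215 to 1451 genes were called in all and 6 of the 10 without Aldara replicate 3. Values of Aldara and untreated libraries did not overlap for 8 of 10 genes in K14Cre keratinocytes (29% of all genes) and for 4 of 10 in floxed control keratinocytes (27.8%). Over both genotypes together, only Hspd1 and Hspb1 among the 10 had no overlap (11.8% of all genes). The summed level of the 10 genes was 8047.4, 8773.5 and 8280 CPM in K14Cre libraries after Aldara, against 7107.5, 6366.2, 6753.2 and 7966.5 CPM untreated. In floxed control libraries the sum was 7385.6, 7141.1 and 5128 CPM after Aldara, against 4919.8, 4306.7 and 5817.7 CPM untreated. Aldara replicate 3 was the lowest of its group and lay below untreated replicate 3.

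**Figure D1:**
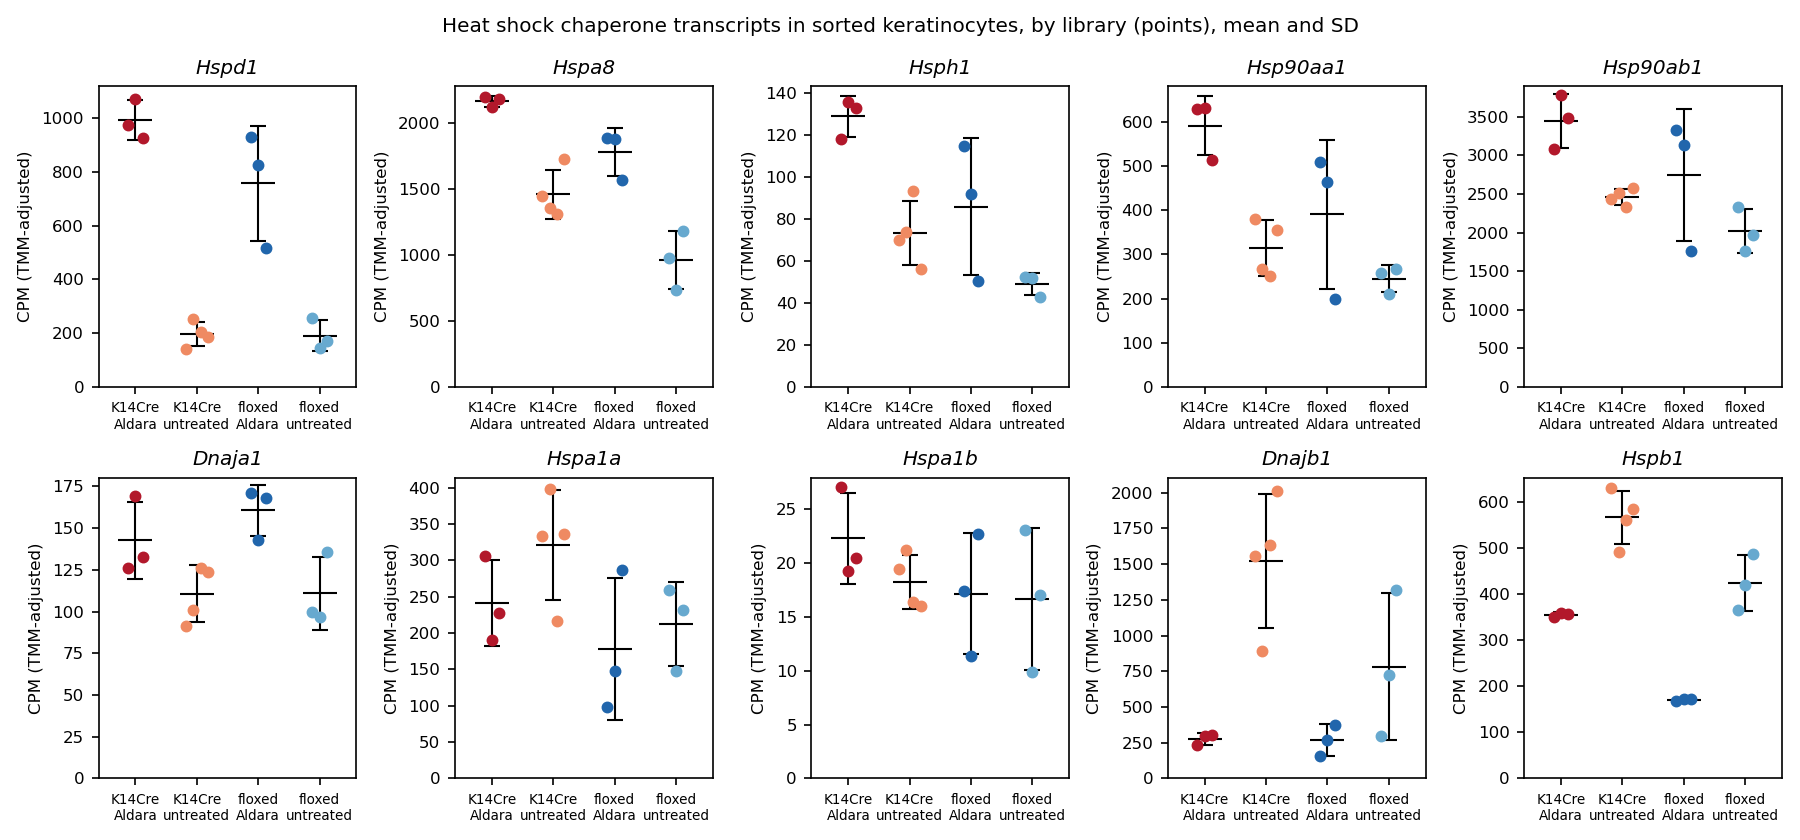
CPM (TMM-adjusted, linear axes from 0) of the 10 genes in each of 13 libraries, with points for libraries and the mean and SD of each group. Hspd1 is higher and Hspb1 lower in every Aldara library than in every untreated library.

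Levels can be compared between genes only per length of transcript. Scaled as CPM per kb of all annotated exons of the gene merged, Hsp90ab1 was the highest of the 10 in every group, at 1149.9 ± 116 in K14Cre after Aldara and 822 ± 34.3 untreated (SD, n = 3 and 4), and at 915 ± 285 in floxed control after Aldara and 674 ± 96.1 untreated (SD, n = 3 each). After Aldara the order below it was Hspa8, Hspd1, Hspb1 and Hsp90aa1 in both genotypes, and the ranges of neighbours among these did not overlap. Hspa8 led this order with 504 ± 9.77 CPM per kb in K14Cre and 414 ± 42.2 CPM per kb in floxed control keratinocytes. In untreated keratinocytes the places behind Hsp90ab1 went to Hspb1, Dnajb1 and Hspa8 in both genotypes. Hspb1 and Dnajb1 overlapped in range there, as did Dnajb1 and Hspa8. Hspd1 thus stood at rank 3 after Aldara, while in both untreated groups its range overlapped those of Hspa1a and Hsp90aa1, the genes at ranks 5 to 7 together with it. Hspa1b was the lowest in every group, at 7.96 ± 1.49 and 6.51 ± 0.893 CPM per kb in K14Cre Aldara and untreated libraries. In floxed control libraries it stood at 6.12 ± 2.02 and 5.95 ± 2.35 CPM per kb, and its range overlapped that of Hsph1. Merged exons of Hspa8 and Hsph1 (4301 and 7266 bases) are much longer than their longest protein-coding transcripts (2394 and 3802 bases). Per kb of that transcript, an alternative added after seeing the data, untreated Hspa8 stood at 610 ± 77.4 in K14Cre and 403 ± 92.2 in floxed control keratinocytes (SD, n = 4 and 3), at ranks 2 and 3 of the 10, with ranges that overlapped those of Hspb1. Hsp90ab1 stayed first and Hspa1b last in every group, but after Aldara the ranges of Hsp90ab1 and Hspa8 in floxed control and of Hspd1 and Hspb1 in K14Cre keratinocytes then overlapped, and the range of Hspa1b overlapped none. Windows of 100 bases, the read length, also occurred in other genes for 63.4% of the Hspa8 transcript. The share was 56.5% for Hspa1a, 49.9% for Hspa1b, 47.5% for Hsp90aa1, 42.7% for Hspb1, 26.9% for Hspd1 and 24% for Dnaja1. It was 0% for Hsp90ab1, Dnajb1 and Hsph1, so the ranks also depend on how reads with several matches were treated.

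**Figure D2:**
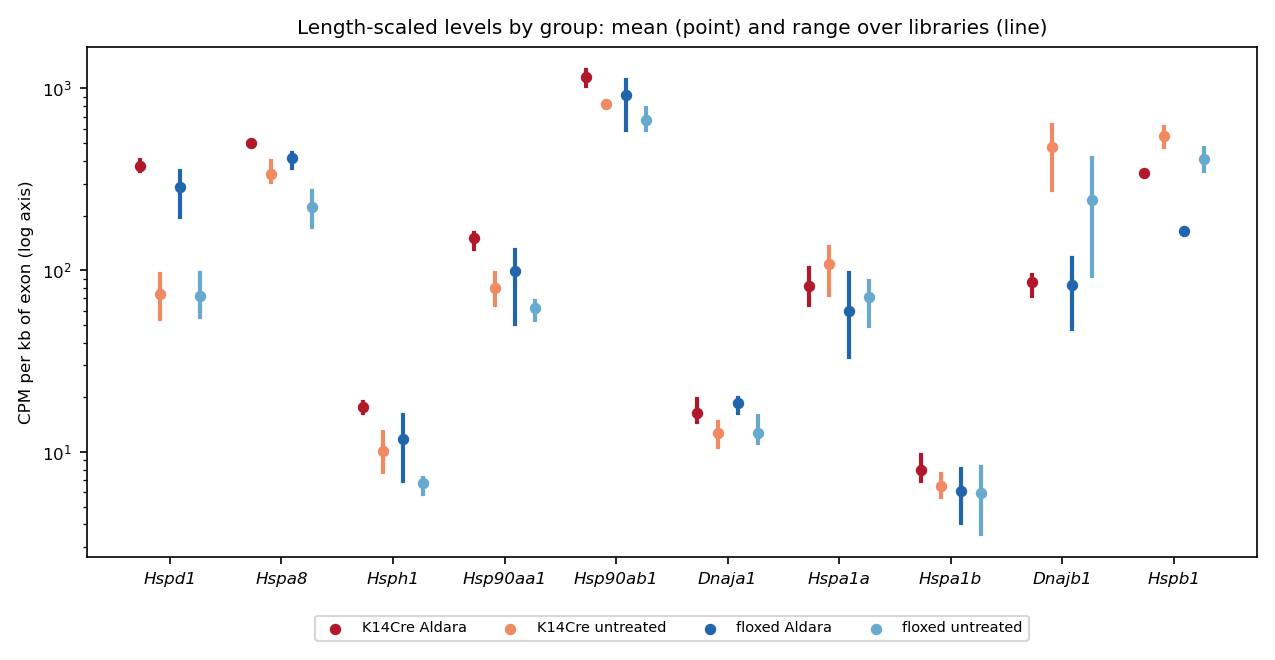
CPM per kb of exon on a log axis for each gene and group, with points for group means and lines from the lowest to the highest library. Hsp90ab1 is highest and Hspa1b lowest in every group, and Dnajb1 and Hspb1 stand below their untreated levels after Aldara.

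Hspd1, which encodes the mitochondrial chaperonin Hsp60 (ENSMUSG00000025980, GRCm38 chr1:55077835-55088243, minus strand), had the largest log2 fold change of the 10 when both genotypes were averaged. It had 977, 1073.9 and 927 CPM in K14Cre libraries after Aldara, against 142, 252, 205 and 185 CPM untreated. In floxed control libraries it had 932, 825 and 519 CPM after Aldara, against 256, 146 and 169 CPM untreated. Every Aldara library lay above every untreated one, with floxed control Aldara replicate 3 the lowest of the treated. Averaged over both genotypes, Hspd1 rose 4.5-fold (log2 2.17, SE 0.20, edgeR adjusted p = 1.47e-05). The rise was 5.07-fold (SE 0.27 in log2, adjusted p = 0.000299) in K14Cre and 3.99-fold (SE 0.29 in log2, adjusted p = 0.00296) in floxed control keratinocytes, and it was called with any of the 13 libraries left out. Exons of Hspe1, the co-chaperonin gene on the opposite strand, cover 4.24% of the exonic bases of Hspd1, and windows of 100 bases, the read length, were shared with other genes for 26.9% of its transcript, mostly with Hspd1-ps3. The gene whose profile over the 13 libraries was most like that of Hspd1, among 10094 genes averaging 3 or more in log2 CPM, was C1qbp, at a root mean square difference of 0.196 in centred log2 CPM. Tmem97 and Dctd followed at 0.274 and 0.282.

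Hspa8, the constitutive cytosolic Hsp70 (ENSMUSG00000015656, chr9:40800984-40810087, plus strand), was higher after Aldara by less. K14Cre libraries had 2200.3, 2120.2 and 2182.4 CPM after Aldara, against 1446.7, 1355.6, 1314 and 1725.6 CPM untreated. Floxed control libraries had 1887.9, 1882.1 and 1571 CPM after Aldara, against 978, 738 and 1179.2 CPM untreated. Treated and untreated values did not overlap within either genotype. Over both genotypes the log2 fold change was 0.73 (SE 0.16, edgeR adjusted p = 0.00325), and it was called with any 1 library left out. In floxed control keratinocytes it was 0.88 (SE 0.23, adjusted p = 0.0321), a call lost in 7 of the 13 fits that each left out 1 library (each floxed control untreated library, floxed control Aldara replicates 1 and 2, or K14Cre Aldara replicates 2 and 3; adjusted p up to 0.155). In K14Cre keratinocytes 0.57 (SE 0.21, adjusted p = 0.0844) did not pass with edgeR, while DESeq2 gave an adjusted p of 0.0199. Windows of 100 bases were shared with other genes for 63.4% of its transcript, mostly with the processed pseudogene Gm15459, so its count depends on how reads with several matches were treated. The genes with the most similar profiles were Surf4 (root mean square difference 0.115), Tcp1 (0.135), which encodes a subunit of the cytosolic chaperonin, and Brix1 (0.137).

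Hsph1 encodes Hsp110, the nucleotide exchange factor of Hsp70 (ENSMUSG00000029657, chr5:149614287-149636376, minus strand). Its values were 118, 136 and 133 CPM in K14Cre libraries after Aldara, against 70, 73.7, 93.6 and 56.2 CPM untreated, without overlap. Floxed control libraries had 115, 91.9 and 50.6 CPM after Aldara, against 52.5, 51.7 and 42.8 CPM untreated, and Aldara replicate 3 fell among the untreated values. The log2 fold change over both genotypes was 0.81 (SE 0.19, edgeR adjusted p = 0.0053), called with any 1 library left out. Within K14Cre keratinocytes it was 0.82 (SE 0.26, adjusted p = 0.0415), and 10 of the 13 fits that left out 1 library lost the call, all but those without K14Cre untreated replicate 3 or floxed control Aldara replicate 1 or 3 (adjusted p up to 0.121). Within floxed control keratinocytes 0.81 (SE 0.28, adjusted p = 0.0931) did not pass, but without Aldara replicate 3 it was 1.08 with an adjusted p of 0.018. No 100-base window of Hsph1 was shared with another gene.

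The Hsp90 genes shared their direction. Hsp90aa1, the inducible form (ENSMUSG00000021270, chr12:110690605-110702728, minus strand), had 630, 631 and 515 CPM in K14Cre libraries after Aldara, against 380, 268, 252 and 355 CPM untreated. The floxed control values were 509, 465 and 198 CPM after Aldara, against 257, 210 and 267 CPM untreated. Values separated in K14Cre keratinocytes, whereas in floxed control keratinocytes Aldara replicate 3 was the lowest of all 6. Over both genotypes Hsp90aa1 rose by 0.79 in log2 (SE 0.21, edgeR adjusted p = 0.0104), a call lost without the 3 libraries with much Gm10800 (0.76, adjusted p = 0.0578). The K14Cre effect of 0.92 (SE 0.28, adjusted p = 0.0369) lost its call without K14Cre untreated replicate 2, 3 or 4 or any K14Cre Aldara library (adjusted p up to 0.111). The floxed control effect of 0.67 (SE 0.30, adjusted p = 0.211) was 0.99 with an adjusted p of 0.0257 without Aldara replicate 3. Hsp90ab1, the constitutive form (ENSMUSG00000023944, chr17:45567775-45573271, minus strand), had 3083.6, 3779 and 3483.4 CPM in K14Cre libraries after Aldara, against 2436.7, 2516.6, 2335.2 and 2572.3 CPM untreated. Floxed control libraries had 3333.3, 3133.7 and 1765.2 CPM after Aldara, against 2332.7, 1764.2 and 1967.4 CPM untreated. Its log2 fold change over both genotypes, 0.46 (SE 0.18), did not pass with edgeR (adjusted p = 0.0676), but passed with DESeq2 (0.0193), with limma voom (0.0395) and in edgeR without floxed control Aldara replicate 3 (0.0103). Hsp90aa1 made up 17%, 14.3% and 12.9% of the summed CPM of both genes in K14Cre libraries after Aldara, against 13.5%, 9.62%, 9.75% and 12.1% untreated. Its share in floxed control libraries was 13.3%, 12.9% and 10.1% after Aldara, against 9.93%, 10.7% and 12% untreated, so the shares overlapped in both genotypes. These shares are not scaled by length. Windows of 100 bases were shared with other genes for 47.5% of the Hsp90aa1 transcript, mostly with the processed pseudogene Gm12346. For Hsp90ab1 it was 0%, so the shares also depend on how reads with several matches were treated.

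J-domain genes went in opposite directions. Dnaja1, which encodes a cytosolic J-domain partner of Hsp70 (ENSMUSG00000028410, chr4:40722150-40737149, plus strand), had 126, 169 and 133 CPM in K14Cre libraries after Aldara, against 91.4, 101, 126 and 124 CPM untreated. It had 171, 143 and 168 CPM in floxed control libraries after Aldara, against 100, 96.7 and 136 CPM untreated. These values did not overlap at full precision within either genotype, although the lowest K14Cre Aldara library and the highest untreated one both round to 126. The log2 fold change of 0.45 over both genotypes (SE 0.15, edgeR adjusted p = 0.0361) was called in 5 of the 13 fits that left out 1 library, those without K14Cre untreated replicate 3 or 4, floxed control untreated replicate 3, floxed control Aldara replicate 2 or K14Cre Aldara replicate 1, and the other 8 gave adjusted p up to 0.117. The call was also lost without the filter on low counts (0.53, adjusted p = 0.071) and without the 3 libraries with much Gm10800 (0.31, adjusted p = 0.23). Dnajb1, the stress-inducible J-domain gene (ENSMUSG00000005483, chr8:83608193-83612653, plus strand), had 230, 295 and 300 CPM in K14Cre libraries after Aldara, against 1559.1, 889, 1635.7 and 2014.2 CPM untreated. Without Cre it had 153, 270 and 376 CPM after Aldara, against 297, 724 and 1322.6 CPM untreated. The K14Cre groups were far apart, while floxed control untreated replicate 1 lay between the treated values. Dnajb1 fell by 2.01 on the log2 scale over both genotypes (SE 0.32, edgeR adjusted p = 0.000385). In K14Cre keratinocytes it fell by 2.47 (SE 0.45, adjusted p = 0.00242). In floxed control keratinocytes -1.55 (SE 0.45, adjusted p = 0.0522) missed the threshold. That value passed with DESeq2 (adjusted p = 0.00339) and ranged between -1.94 without untreated replicate 1 (adjusted p = 0.0121) and -0.93 without untreated replicate 3 (0.282).

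Hspa1a and Hspa1b, the stress-inducible Hsp70 genes, lie side by side on chromosome 17 (ENSMUSG00000091971, chr17:34969190-34972156, and ENSMUSG00000090877, chr17:34956436-34959238, both minus strand) and encode nearly the same protein. Hspa1a had 306, 191 and 227 CPM in K14Cre libraries after Aldara, against 333, 398, 216 and 336 CPM untreated. It had 98.6, 147 and 287 CPM in floxed control libraries after Aldara, against 259, 147 and 231 CPM untreated. The groups overlapped in both genotypes, and the log2 fold change over both was -0.33 (SE 0.24, edgeR adjusted p = 0.362). Hspa1b had 27.1, 19.3 and 20.5 CPM in K14Cre libraries after Aldara, against 19.5, 21.2, 16.4 and 16 CPM untreated. Floxed control libraries had 17.4, 11.4 and 22.7 CPM after Aldara, against 23.1, 9.92 and 17 CPM untreated. Its log2 fold change over both genotypes was 0.17 (SE 0.26, adjusted p = 0.689), again with overlapping groups. Since 47.1% of the 100-base windows of Hspa1a also occur in Hspa1b, reads may be split between them. The counts of both genes summed gave -0.30 (SE 0.24, adjusted p = 0.404), a value that is mostly that of Hspa1a, which took 85% to 95.5% of the summed CPM in every library. The gene with the profile nearest to Hspa1a was Gm20481 (root mean square difference 0.078), named after its values were seen. Gm20481 overlaps Hspa1a on the opposite strand over 19% of its exonic bases, and without strand the reads of both cannot be told apart. For Hspa1b the most similar profiles were those of Cul4b (0.131), Msh3 (0.219) and Zfp277 (0.252).

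Hspb1 encodes the small heat shock protein Hsp25 of the mouse, the counterpart of human HSP27 (ENSMUSG00000004951, chr5:135887919-135889563, plus strand). K14Cre libraries had 349, 358 and 357 CPM after Aldara, against 629, 491, 559 and 583 CPM untreated. Floxed control libraries had 167, 173 and 171 CPM after Aldara, against 364, 419 and 486 CPM untreated. The Aldara replicates lay close together in each genotype, and every treated library lay below every untreated one. Hspb1 fell by 0.99 on the log2 scale over both genotypes (SE 0.13, edgeR adjusted p = 0.000119), by 0.67 in K14Cre (SE 0.18, adjusted p = 0.0202) and by 1.31 in floxed control keratinocytes (SE 0.19, adjusted p = 0.00296). The K14Cre call was lost without untreated replicate 1 or any 1 of the K14Cre Aldara libraries (adjusted p up to 0.0762), without the filter on low counts (-0.60, adjusted p = 0.194) and without the 3 libraries with much Gm10800 (-0.72, adjusted p = 0.0552). Of its 100-base windows, 42.7% also occur in the processed pseudogene Hsp25-ps1. Its nearest profiles were those of Atp1b1 (root mean square difference 0.255), Tspan9 (0.267) and Tmem43 (0.27).

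**Figure D3:**
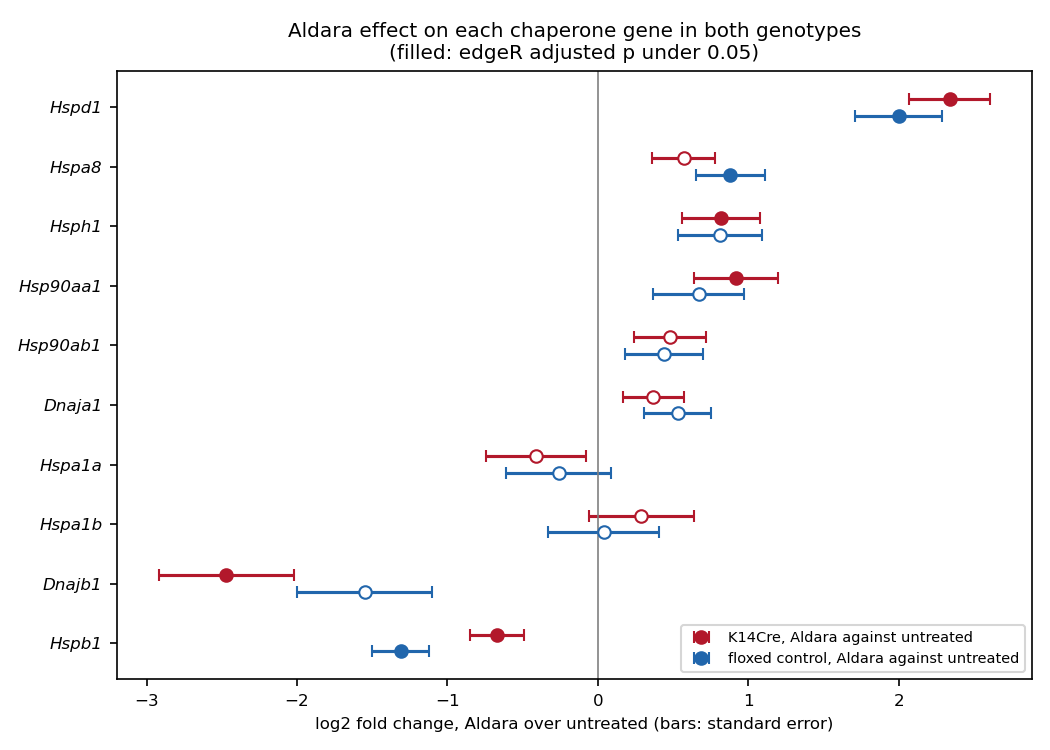
Log2 fold change of each gene, Aldara over untreated, with its standard error, in K14Cre (red) and floxed control (blue) keratinocytes. Filled points passed an edgeR adjusted p of 0.05, and Hspd1 and Hspb1 are filled in both genotypes.

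The second question of the design was whether K14Cre keratinocytes, in which Cre acts on floxed Il12rb2, differed from floxed control keratinocytes. No gene of the 16051 tested was called by edgeR in either treatment or in the interaction (0% in each comparison), so none of the 10 was. At an unadjusted p under 0.05 there were 690 genes, among them 2 of the 10, after Aldara, 599 genes with 4 of the 10 in untreated cells, and 539 genes with 1 of the 10 in the interaction. Each of these totals is below a share of 0.05 of the 16051 genes, the share that this threshold passes when no gene differs. DESeq2 called 24, 22 and 2 genes in these comparisons, and limma voom called 0. Of the 10 genes, Hspb1 had the smallest p after Aldara and in the interaction, and Hspa8 in untreated cells. After Aldara it had 349, 358 and 357 CPM in K14Cre, against 167, 173 and 171 CPM in floxed control keratinocytes, a 2.08-fold difference (log2 1.06, SE 0.19, edgeR adjusted p = 0.487). DESeq2 called this difference (adjusted p = 2.78e-05), and it was between 1.04 and 1.07 in log2 with any 1 library left out. Untreated, the difference of Hspb1 was 0.42 (SE 0.18, edgeR adjusted p = 1), also without overlap, and the interaction was 0.64 (SE 0.26, adjusted p = 1). Among the others, Hspa8 (log2 0.60, SE 0.22), Hsph1 (0.58, SE 0.26) and Hsp90ab1 (0.29, SE 0.24) did not overlap between untreated K14Cre and untreated floxed control libraries. After Aldara the same held for Hspa8 (0.28, SE 0.23), Hsph1 (0.59, SE 0.28) and Hsp90aa1 (0.60, SE 0.30). With Hspb1, 4 of the 10 genes thus did not overlap in each treatment, all higher in K14Cre, where 9.09% of all genes did so in either direction after Aldara (4.37% higher) and 6.03% untreated (2.77% higher). Positive log2 differences were seen for 9 of 10 genes in each treatment, with medians of 0.38 after Aldara and 0.39 untreated, against -0.02 and -0.05 over all genes tested. Of all 16051 genes, 7758 were positive after Aldara and 7264 untreated. Untreated, 14 of 14 cytosolic chaperonin (CCT) and prefoldin genes and 7 of 7 basal keratinocyte markers were positive too, but 6 of 12 other cytosolic J-domain genes and 1 of 6 tested sebocyte markers. Among the 10, Dnaja1 was the exception, at -0.17 (SE 0.22) after Aldara and -0.01 (SE 0.20) untreated. Dnajb1 differed by 0.05 (SE 0.44) after Aldara and 0.96 (SE 0.43) untreated, and its interaction of -0.92 (SE 0.61, adjusted p = 1) did not pass. For the stress-inducible Hspa1a the difference was 0.45 (SE 0.35) after Aldara and 0.59 (SE 0.34) untreated, with overlapping groups. Its near copy Hspa1b differed by 0.37 (SE 0.37) after Aldara and 0.13 (SE 0.35) untreated, and Hspd1 by 0.39 (SE 0.28) and 0.04 (SE 0.26). The difference of Hsp90ab1 after Aldara was 0.33 (SE 0.26), and that of Hsp90aa1 untreated was 0.36 (SE 0.28). For the remaining genes the interaction was negative for Hspa8 (-0.31, SE 0.31), Dnaja1 (-0.17, SE 0.30) and Hspa1a (-0.15, SE 0.48). It was positive for Hspd1 (0.35, SE 0.39), Hspa1b (0.25, SE 0.51), Hsp90aa1 (0.24, SE 0.41), Hsp90ab1 (0.04, SE 0.35) and Hsph1 (0.01, SE 0.38), and the adjusted p was 1 for each of these 8 (edgeR). Basal keratinocyte markers summed to 12756.8 to 21146.1 CPM in K14Cre and 12661.2 to 20502.2 CPM in floxed control libraries after Aldara, and to 39645.4 to 67479.6 and 25369.9 to 45153.6 CPM untreated. Their part in the genotype values was not tested.

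The partners of these chaperones were read from lists of related genes. Over both genotypes, 24.9% of all genes tested were called, 13% higher and 11.9% lower, against which the counts of each list stand. The lists too were chosen with earlier results of these data known, so these counts do not test the lists. Hsf1, a factor known to bind heat shock elements, whose binding was not measured here, had a log2 fold change of 0.08 over both genotypes and did not pass in any Aldara comparison (0.07 in K14Cre and 0.09 in floxed control keratinocytes), and its sign changed without the 3 libraries with much Gm10800. Of 5 tested heat shock factors and regulators 1 changed, Hsf2, which fell by 1.73 over both genotypes (SE 0.36, edgeR adjusted p = 0.00273) and by 2.22 in K14Cre (adjusted p = 0.00969), with -1.25 (adjusted p = 0.169) in floxed control keratinocytes. Among 6 other cytosolic Hsp70 and Hsp110 genes, 2 rose and 2 fell. Hspa4, another Hsp110 gene, rose by 1.13 (SE 0.20, adjusted p = 0.00078), and Hspa14 by 0.66, while Hspa2 fell by 1.13 and Hspa12a fell by 2.90. Among 12 other cytosolic J-domain genes, 2 rose and 1 fell, Dnaja2 rising by 0.49. Dnajc2, whose protein works at the ribosome, rose by 1.45 (SE 0.16, adjusted p = 3.44e-05), and Dnajb4, of the same class as Dnajb1, fell by 1.21 (SE 0.29, adjusted p = 0.00647). Of 6 other small heat shock protein genes, 1 changed. Hspb8, which works with Bag3 in selective autophagy, had 44.9, 57.5 and 87.2 CPM in K14Cre libraries after Aldara, against 270, 138, 333 and 311 CPM untreated. It had 43.1, 80.5 and 40.2 CPM in floxed control libraries after Aldara, against 106, 169 and 173 CPM untreated. All Aldara libraries thus lay below all untreated ones, and Hspb8 fell by 1.76 over both genotypes (SE 0.26, adjusted p = 0.000212), as Hspb1 did.

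Of the chaperone lists, those of mitochondrial folding and of the cytosolic chaperonin held the highest shares of genes that rose. Of 10 mitochondrial folding and protease genes, 8 rose and 1 fell over both genotypes, with 6 and 1 in K14Cre and 5 and 0 in floxed control keratinocytes. Hspe1, the partner of Hspd1, had 382, 287 and 184 CPM in K14Cre libraries after Aldara, against 45.7, 66.9, 92.7 and 104 CPM untreated. The floxed control values were 252, 213 and 136 CPM after Aldara, against 80.3, 48.1 and 55.9 CPM untreated. No treated library overlapped an untreated one, and Hspe1 rose 3.46-fold over both genotypes (log2 1.79, SE 0.24, edgeR adjusted p = 0.000117). Hspa9, the mitochondrial Hsp70, rose by 1.41 (SE 0.15, adjusted p = 2.59e-05), and Clpp, a matrix protease, by 1.77 (SE 0.18, adjusted p = 2.42e-05). Dnaja3, a mitochondrial J-domain gene, and Afg3l2, an inner membrane protease, each rose by 0.91. Grpel2, a nucleotide exchange factor of mitochondrial Hsp70, was the gene that fell (-0.86, adjusted p = 0.00877). The list of 14 chaperonin CCT and prefoldin genes, which fold actin and tubulin, had 11 genes that rose and 0 that fell, led by Cct3 (1.14, SE 0.15, adjusted p = 9.63e-05). Cct6a, Cct5, Cct7 and Tcp1 rose by 0.86, 0.83, 0.82 and 0.80. Medians were 0.91 for the mitochondrial list and 0.81 for the CCT and prefoldin list, against -0.15 over all genes tested. Of 12 Hsp90 co-chaperones 6 rose and 1 fell, and of 12 Hsp70 co-chaperones 4 rose and 0 fell. Fkbp5, an Hsp90 co-chaperone of steroid receptors, rose by 3.13 (SE 0.52, adjusted p = 0.000481). Ptges3 and Fkbp4, of the same receptor complexes, rose by 1.29 (SE 0.19, adjusted p = 0.000252) and 1.17 (SE 0.17, adjusted p = 0.00018), and the cyclophilin gene Ppid by 1.06. Bag2, a nucleotide exchange factor of Hsp70, rose by 2.32 (SE 0.36, adjusted p = 0.000351). Hspbp1, Stip1, which links Hsp70 to Hsp90, and St13 rose by 0.99, 0.70 and 0.54. Some of these calls were lost with 1 library left out: St13 without floxed control untreated replicate 2 or K14Cre Aldara replicate 2 (adjusted p up to 0.0592), Hspa2 without floxed control untreated replicate 2, K14Cre untreated replicate 1 or floxed control Aldara replicate 1 or 2 (up to 0.0633), and Dnaja2 without any but K14Cre untreated replicate 2 or floxed control Aldara replicate 3 (up to 0.122). Without the 3 libraries with much Gm10800 the calls of Hspa12a (-2.47, adjusted p = 0.0525), Hspa14 (0.51, 0.0945), Stip1 (0.53, 0.0789), St13 (0.37, 0.158), Hspa2 (-0.93, 0.151) and Dnaja2 (0.48, 0.131) were lost. Those of Hspa2 (adjusted p = 0.0551) and Dnaja2 (0.053) were also lost without the filter on low counts. Over both genotypes, the calls of Afg3l2, Cct7 and Grpel2 were not checked under these alternatives.

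**Figure D4:**
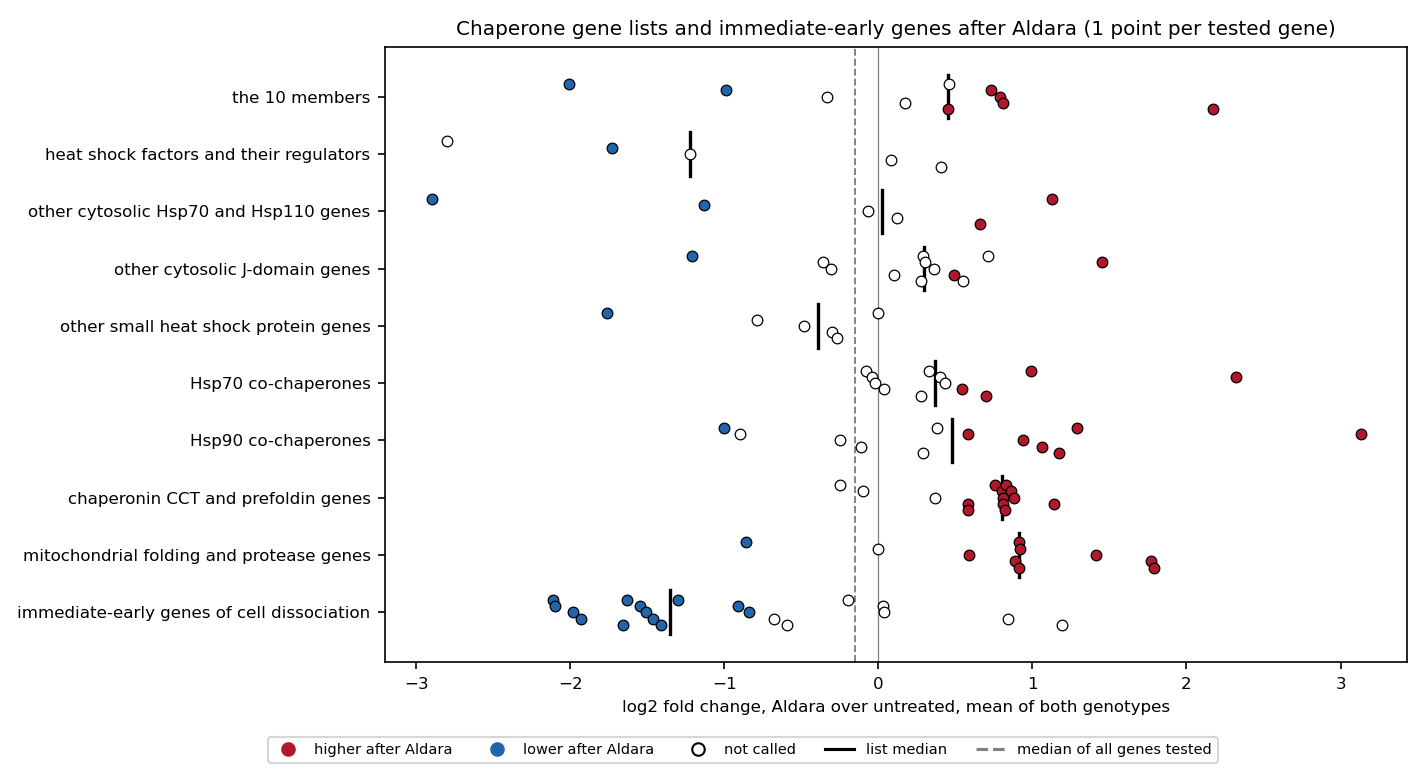
Log2 fold change, Aldara over untreated as the mean of both genotypes, for each tested gene (points) of the 10 members, 8 chaperone lists and the immediate-early list, with list medians (bars) and the median of all genes (dashed). Red and blue points passed an edgeR adjusted p of 0.05. CCT, prefoldin and mitochondrial folding genes lie mostly to the right, immediate-early genes mostly to the left.

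Immediate-early genes, which also respond to tissue dissociation, fell after Aldara, as Dnajb1 did, whereas Hspa1a and Hspa1b did not pass the test. Of 20 such genes, 13 fell and 0 rose over both genotypes, 11 fell in K14Cre and 6 in floxed control keratinocytes, where 11.9%, 7.69% and 2.9% of all genes tested fell, with a median log2 fold change of -1.35 over both. Their summed level was 6664.4 to 9596.5 CPM in K14Cre libraries after Aldara, against 20798.8 to 31061.1 CPM untreated. It was 3990.7, 6645.8 and 13464.8 CPM in floxed control Aldara replicates 1 to 3, against 10818.6, 25698.7 and 25689.1 CPM in untreated replicates 1 to 3. The untreated libraries with the lowest and highest sum, floxed control replicate 1 and K14Cre replicate 4, also had the lowest and highest Dnajb1 (297 and 2014.2 CPM). Between them the order differed. Floxed control untreated replicates 2 and 3 had nearly equal sums, but Dnajb1 of 724 and 1322.6 CPM. K14Cre untreated replicate 2 had a lower sum than both, 20798.8 CPM, with Dnajb1 of 889 CPM. A link between the sums and Dnajb1 was not tested. Atf3 fell by 2.10 (SE 0.31, edgeR adjusted p = 0.000251) and Dusp1 fell by 2.11 (SE 0.37, adjusted p = 0.000727). Socs3, Zfp36, Fos and Nr4a1 had log2 fold changes of -1.98, -1.93, -1.63 and -1.41 and were all called, those of Socs3 and Nr4a1 without a check under the alternatives. Markers of cell layers and other cells changed as well. Of 7 basal keratinocyte markers, 5 fell and 0 rose over both genotypes, with a median log2 fold change of -1.14, and their sums in Aldara libraries, given above, lay below all untreated sums in each genotype. Suprabasal keratinocyte markers, all 7 counted in each group, summed to 264 to 913 CPM in K14Cre libraries after Aldara, against 2757.2 to 5988.9 CPM untreated, and to 390 to 637 CPM in floxed control libraries after Aldara, against 2519.4 to 4620 CPM untreated. Of these 7, 5 fell and 1, Ivl, rose over both genotypes. Sebocyte markers, of which Mogat2 was at 0 in both Aldara groups, summed to 2204 to 2890 CPM in K14Cre libraries after Aldara, against 255 to 1364.7 CPM untreated, and to 2451.1 to 4981.4 CPM in floxed control libraries after Aldara, against 670 to 1472.5 CPM untreated. Fibroblast markers, all 6 counted in each group, summed to 10.6 to 129 CPM in K14Cre libraries after Aldara, against 776 to 1865.3 CPM untreated, and to 71.4 to 308 CPM in floxed control libraries after Aldara, against 784 to 929 CPM untreated. The part of these changes in the values of the 10 chaperone genes was not tested.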

How the data were processed

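Bulk RNA of sorted keratinocytes was sequenced by the Smart-seq2 method, which marks no strand and carries no molecular identifiers, as single-end reads of 100 bases, per the labels' protocols. Whole-number read counts for each Ensembl gene were deposited, and the authors had not normalized them. STAR, featureCounts of Subread and genome build GRCm38 are named in the submitters' processing notes, with versions, annotation, strand setting and treatment of reads with several matches not given in the sources used here. Coordinates and exonic lengths came from GENCODE M21, and promoter sequences from RefSeq (GRCm38.p6).

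Genes were kept with edgeR 4.0.16 (R 4.3.3) filterByExpr at a minimum count of 10. TMM factors and 1 quasi-likelihood fit of all 13 libraries, with a coefficient for each group, were used for 6 F-test comparisons, 1 of them the mean Aldara effect of both genotypes. Benjamini-Hochberg adjustment ran over all 16051 genes, and calls needed an adjusted p under 0.05. The SE was taken as the log2 fold change over the root of F. Alternatives were DESeq2 size factors, DESeq2 1.42.0, limma 3.58.1 voom, no filter, a replicate block each library left out and, added after seeing the data, leaving out the 3 libraries with over 5% of counts in Gm10800, and levels per longest transcript. All 10 members are named in each comparison, with up to 4 called genes of the smallest p from each list in each Aldara comparison, Hsf1, Hsf2, and the 3 nearest profiles of Hspa8, Hspa1b, Hspb1 and Hspd1. Any further gene, such as Grpel2 or Ivl, was picked after its values were known. The members and lists were chosen with earlier results of these data known. Floors cover counting error only, whereas each SD and SE includes the spread between libraries.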

Additional observations from a re-analysis of the deposited data

How the results depend on the processing

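Over both genotypes, Hspd1, Hspb1, Dnajb1, Hspa8 and Hsph1 kept their direction and their call under every alternative run, and Hsp90aa1 did so except without the 3 libraries with over 5% of counts in Gm10800 (0.76, adjusted p = 0.0578), an alternative chosen after seeing the data because the planned limit of 1% covers 7 libraries, among them every K14Cre Aldara library, and could not be run. Without those 3 libraries the genes called were 1466 in K14Cre, 270 in floxed control and 2622 over both genotypes, and 2 members were called in K14Cre, with fewer samples in the fit. The median of all genes then stood at 0.08 over both genotypes, against -0.15 with all libraries. Signs turned without these libraries for Hspa1b (-0.20 for Aldara in floxed control, -0.26 for K14Cre against floxed control untreated), Dnaja1 (0.13) and Hspd1 (-0.07) in untreated K14Cre against floxed control, Hspa1a (0.22) and Hsph1 (-0.11) in the interaction, and Hsf1 for Aldara (-0.20 in K14Cre, -0.02 in floxed control, -0.11 over both). DESeq2 called 2041 genes for Aldara in floxed control, 24 genes and 1 member for K14Cre after Aldara, 22 genes for K14Cre untreated and 2 in the interaction. Without the filter 1 gene was called for K14Cre after Aldara and 3 untreated. The cause of these changes was not tested. The summed counts of Hspa1a and Hspa1b, mostly those of Hspa1a, gave -0.36 in K14Cre, -0.24 in floxed control, -0.30 over both genotypes and -0.13 in the interaction, where Hspa1b alone was positive.

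Whether replicate numbers pair the libraries was not settled. Correlations of deviations were -0.16 to 0.42 over 18 pairs with the same number and -0.44 to 0.37 over 45 with different numbers. The median was 0 for both kinds of pair, while 6 of 13 libraries correlated best with a library of their own number. With the replicate block, members called were 3 in K14Cre, 3 in floxed control and 7 over both genotypes, and genes called were 1919, 831 and 3581. The Aldara effect of Hspb1 in K14Cre missed the threshold (-0.66, adjusted p = 0.0642), as did that of Dnaja2 over both genotypes (0.49, 0.0678). Calls were also lost for Hsph1 in K14Cre and for Hspa8 in floxed control keratinocytes, where Dnajb1 gained one. The interaction of Hsph1 was -0.09.

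Leaving out 1 library at a time gave 1650 to 2764 genes and 2 to 5 members in K14Cre, 215 to 1451 genes and 2 to 6 members in floxed control, and 3142 to 4004 genes and 6 to 7 members over both genotypes. Members called were 6 in floxed control without Aldara replicate 3. In K14Cre they were 2 without any 1 Aldara library and 3 without untreated replicate 1, 2 or 4. The comparisons of K14Cre with floxed control stayed at 0 genes and 0 members, and the interaction at 0 to 1 genes. Values that changed sign ranged from -0.79 to 0.03 (Hspa1a), -0.22 to 0.35 (Hspa1b) and -0.03 to 0.19 (Hsf1) for Aldara in floxed control, and from -0.05 to 0.27 for Hsf1 in K14Cre. For K14Cre against floxed control they ranged from -0.23 to 0.38 (Dnajb1) after Aldara, and from -0.14 to 0.43 (Hspa1b), -0.10 to 0.17 (Dnaja1) and -0.12 to 0.32 (Hspd1) untreated. In the interaction they ranged from -0.44 to 0.38 (Hspa1a), -0.06 to 0.51 (Hspa1b), -0.27 to 0.28 (Hsph1), -0.08 to 0.48 (Hsp90aa1) and -0.20 to 0.21 (Hsp90ab1).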
